A study of Mus musculus with 14 samples.

Results

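Tex19.1 and Tex19.2 are paralogous mouse genes that lie next to each other on chromosome 11. They were taken as all probe sets that the platform annotation names for either gene, which gave 1 probe set each (1417482_at for Tex19.1, Entrez Gene 73679, and 1460274_at for Tex19.2, Entrez Gene 70956), 2 of the 12393 genes with a probe set. Both genes were selected on their signal in these arrays, since they stood among the 20 genes (0.232% of the 8608 tested) that rose on average in knockout cells, so their knockout minus control differences are given as a description and without a test.

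RNA was measured on 14 Affymetrix arrays of hematopoietic cells sorted from the marrow of mice that had lost the maintenance DNA methyltransferase Dnmt1, which methylates newly replicated DNA after the pattern of the old strand, and of their littermate controls. The knockout mice were Dnmt1fl/fl and carried Mx-Cre, a Cre recombinase transgene that interferon induces, and the controls were Dnmt1fl/fl without Mx-Cre, both maintained on C57BL/6. All mice, aged 8 to 12 weeks, received poly(I)poly(C) 7 times at 25 ug/kg, on alternate days, and were killed 4 days after the final dose, so the controls carried the floxed alleles and the treatment too. Each array held lineage-depleted marrow pooled from 4 to 6 mice of 1 genotype. Long-term stem cells (LT-HSCs, sorted as Kit+ Sca-1+ CD34-) had 2 knockout and 2 control arrays, multipotent progenitors (MPPs, Kit+ Sca-1+ CD34+) had 2 and 2, and myeloid progenitors (Kit+ Sca-1-) had 3 and 3, in 7 littermate pairs. Mx-Cre also acts in other interferon-responsive cells of the mouse, and the share of cells in each pool that had recombined is not given in the labels.

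Tex19 proteins occur in mammals and are made mainly in germ cells, in pluripotent cells and in the placenta. In mice Tex19.1 is needed for spermatogenesis and helps to restrain retrotransposons in the germ line, where its protein binds the ubiquitin ligase Ubr2, and Tex19.2 is a duplicate that is expressed in the testis. In most somatic tissues the genes are silent, and methylation of CG dinucleotides at the Tex19.1 promoter is a known part of that silence.

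The 250 bases upstream of each start are shown because the pair differ there in CG dinucleotides, the sites whose methylation Dnmt1 maintains. The sequences are RefSeq windows of build GRCm38.p6, printed 5′ to 3′ on the gene's own strand, at chr11:121145893-121146142 (plus strand) for Tex19.1 and chr11:121118678-121118927 (minus strand) for Tex19.2. Capitals mark CG dinucleotides.
Tex19.1: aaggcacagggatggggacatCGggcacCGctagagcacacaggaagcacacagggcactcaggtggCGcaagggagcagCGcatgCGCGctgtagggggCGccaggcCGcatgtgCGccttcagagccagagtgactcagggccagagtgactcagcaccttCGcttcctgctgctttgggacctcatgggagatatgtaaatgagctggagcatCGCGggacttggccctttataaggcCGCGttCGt
Tex19.2: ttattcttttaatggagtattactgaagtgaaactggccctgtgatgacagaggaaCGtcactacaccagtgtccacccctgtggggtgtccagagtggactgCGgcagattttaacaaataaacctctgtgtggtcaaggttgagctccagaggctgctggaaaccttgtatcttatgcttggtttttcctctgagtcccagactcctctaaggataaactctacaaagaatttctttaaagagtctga

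The genes point away from each other, and the 2 windows are 26965 bases apart. The Tex19.1 window held 15 CG dinucleotides at a GC content of 61.6%. Its ratio of observed over expected CG, which corrects the CG count for base composition, was 0.643, and 69.1% of the 32851 upstream windows of mouse genes in the RefSeq table had a lower ratio. The Tex19.2 window held 2 CG dinucleotides at a GC content of 44.4%, with a ratio of 0.163, and 24.3% of windows were lower. Of the last 100 bases before the start, Tex19.1 had 6 CG and Tex19.2 had 0, its nearest lying 147 bases from the start.

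Of the 20 genes that rose, 17 had an upstream window, and 3 of the 17 (17.6%: Noct at 0.134, Tex19.2 and the muscle troponin gene Tnnt1 at 0.283) had a ratio below 0.3. This share was near the 14.8% of the windows of genes tested, against 42.7% of all windows. The median of the 17 was 0.534, between the median of 0.72 over the 9089 windows of genes tested and that of 0.373 over all windows. Neither window held the cyclic AMP response element TGACGTCA, the E-box CACGTG or the E2F motif GGCGGGAA, searched on both strands, which 1.55%, 6.02% and 1.86% of all windows held. The Tex19.1 window held GCGCATGCG, a part of the motif of the transcription factor NRF1, on both strands at overlapping positions about 170 bases from the start. That motif was searched after the sequence had been seen, stood in 1.45% of all windows and was absent from the Tex19.2 window. DNA methylation was not analysed here.

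**Figure D1:**
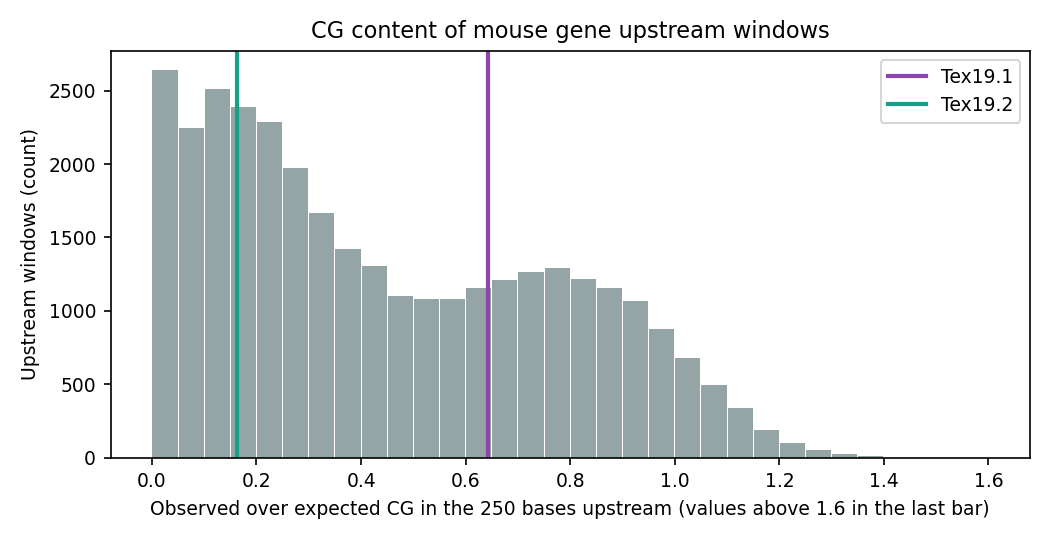
Observed over expected CG ratio (x axis) in the 250 bases upstream of mouse genes, with the number of windows on the y axis (bars, 32851 windows) and the 2 genes as vertical lines. Tex19.1, at 0.643, stands on the lower flank of the right-hand hump, and Tex19.2, at 0.163, within the left-hand one.

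Tex19.1 was bright on every knockout array and at background on every control array. The values are probe set intensities on a linear scale, as the authors deposited them. Knockout LT-HSCs had 1023 and 985 units, against 8.04 and 3.08 in control LT-HSCs. Knockout MPPs had 258 and 1015 units, against 4.40 and 3.73 in control MPPs. Knockout myeloid progenitors had 193, 920 and 707 units, against 6.57, 4.42 and 3.09 in control myeloid progenitors. The 7 knockout and 7 control arrays did not overlap, with the lowest knockout value, 193, far above the highest control value, 8.04. Tex19.1 and Tex19.2 were chosen on this contrast, and the share of all genes without overlap was not counted, so this is a description for both.

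Among all probe sets of its array, Tex19.1 stood at the 75.2nd to 95.1st percentile in knockout cells and at the 9.43rd to 24.1st in control cells. The signal of a probe set had to exceed the 40th percentile of the array, 19.9 to 26.9 units, on at least 2 arrays for the gene to be tested. Tex19.1 exceeded it on 7 of 7 knockout arrays and 0 of 7 control arrays, so it entered the test through the knockout arrays alone.

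Tex19.2 had the same layout. Knockout LT-HSCs had 566 and 428 units, against 2.88 and 4.34 in control LT-HSCs. Knockout MPPs had 120 and 420 units, against 1.64 and 1.95 in control MPPs. Knockout myeloid progenitors had 88.4, 530 and 297 units, against 7.00, 3.54 and 3.75 in control myeloid progenitors. Again the groups did not overlap, and the lowest knockout value, 88.4, belonged to the same array as the lowest value of Tex19.1. Tex19.2 stood at the 61.7th to 89.9th percentile of its array in knockout cells and at the 2.46th to 25.2nd in control cells, and it too passed the 40th percentile on 7 knockout and 0 control arrays. The 2 probe sets differ in how strongly they bind, so their intensities do not say which gene was expressed more.

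**Figure D2:**
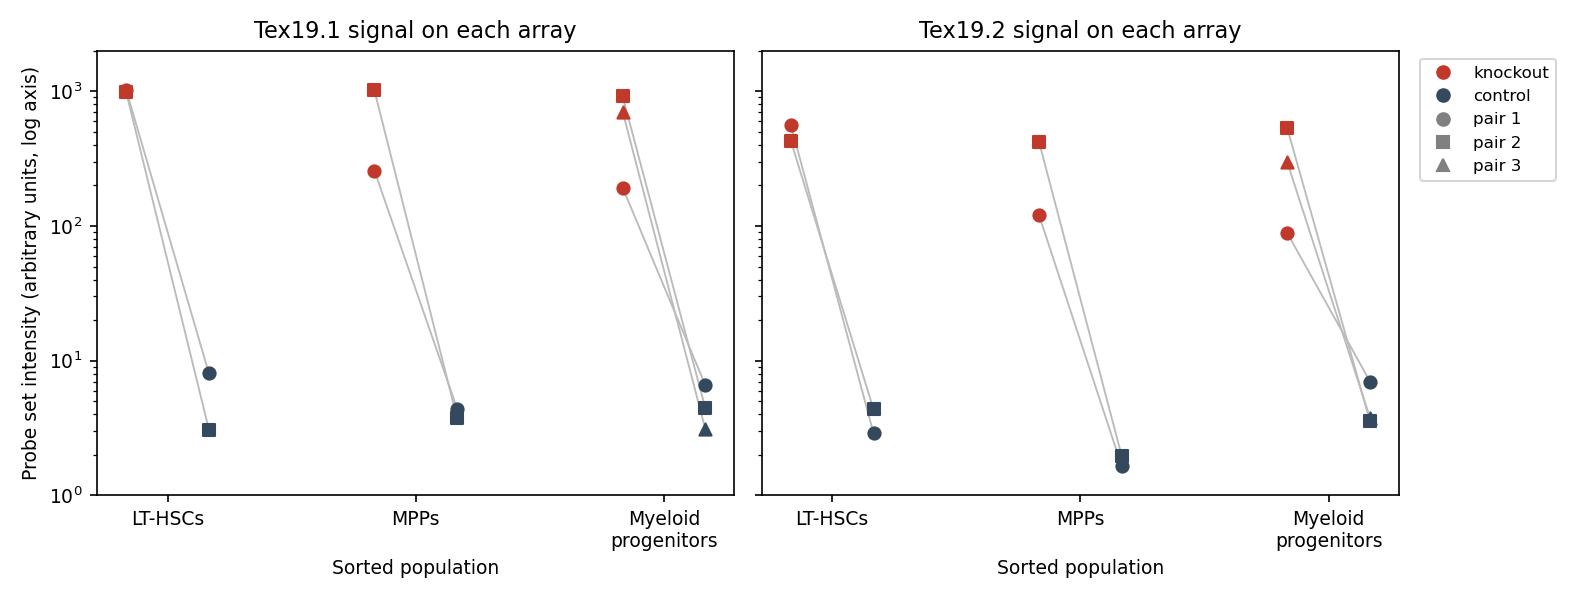
Intensity of Tex19.1 and Tex19.2 (y axis, arbitrary units on a log axis) on each of the 14 arrays, by sorted population (x axis), knockout in red to the left of control in blue, with lines joining littermate pairs and the marker giving the pair number. All knockout points lie at 88.4 or above and all control points at 8.04 or below, and pair 1 is the lowest knockout point in MPPs and myeloid progenitors.

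On the scale used for all genes, log2(intensity + 16) after quantile normalization, Tex19.1 had the largest average difference of the 8608 genes tested and Tex19.2 the third largest, as they also had with 1 or 64 added in place of 16. With all 15549 probe sets that passed the filter taken singly, they ranked 2 and 6. Of these genes 20 (0.232%) rose and 0 (0%) fell in knockout cells by limma at an adjusted p under 0.05, with 275 higher and 246 lower before adjustment (p under 0.05). The knockout minus control difference of Tex19.1 was 5.69 ± 0.61 in LT-HSCs and 4.73 ± 0.61 in MPPs (SE, n = 2 arrays per genotype). It was 4.66 ± 0.50 in myeloid progenitors (n = 3), and the average over populations was 5.03 ± 0.33. That of Tex19.2 was 4.74 ± 0.62 in LT-HSCs, 3.80 ± 0.62 for MPPs and 3.65 ± 0.51 for myeloid progenitors, averaging 4.06 ± 0.34. The median gene was at -0.0076 on average. Ranked within a population, Tex19.1 was number 1 in all 3, while Tex19.2 was number 2 for LT-HSCs, 5 for MPPs (3 with 1 added, 7 with 64) and 4 for myeloid progenitors (4 and 6).

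The sizes depend on the value added before the logarithm, because the control signals lie at background. With 1 in place of 16 the average was 6.89 for Tex19.1 and 6.18 for Tex19.2, and with 64 it was 3.42 and 2.50. Without MPP knockout array 1 the MPP difference was 5.66 for Tex19.1 and 4.63 for Tex19.2, and without MPP knockout array 2 it was 3.80 and 2.98. Without myeloid progenitor knockout array 1 the myeloid difference was 5.28 and 4.29.

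**Figure D3:**
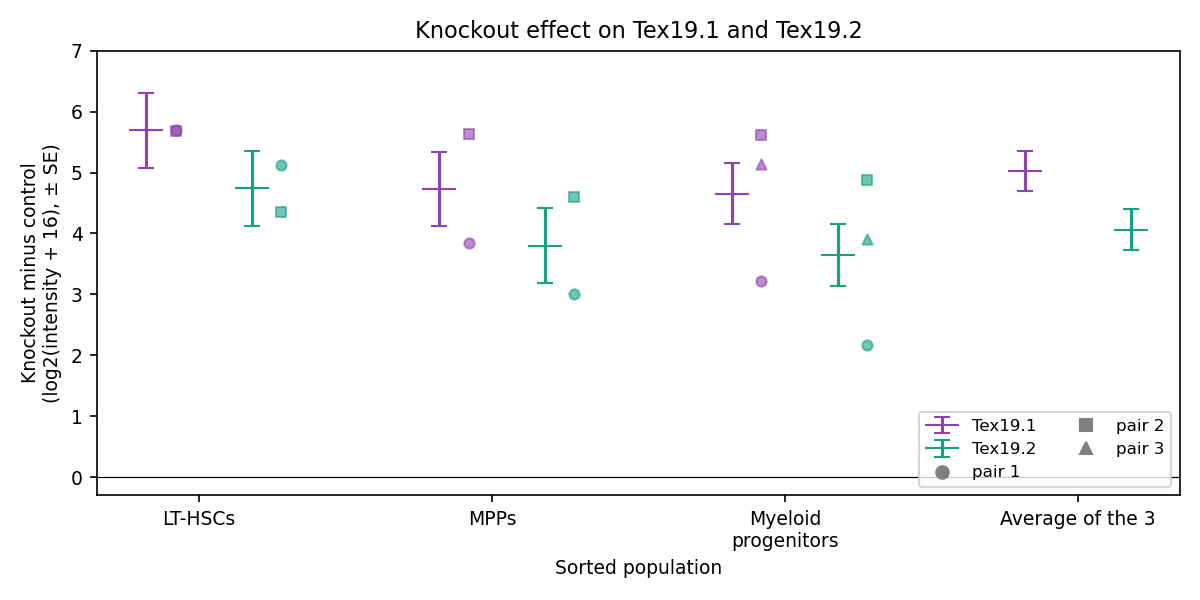
Knockout minus control difference of Tex19.1 (purple) and Tex19.2 (green) on the log2(intensity + 16) scale (y axis), in each population and averaged over the 3 (x axis). Bars are the limma estimate ± SE and the points beside them are the single littermate pairs. Every pair lies above 2, and pair 1 lies lowest in MPPs and in myeloid progenitors.

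Within the littermate pairs, the Tex19.1 difference was 5.70 and 5.69 for LT-HSCs, 3.84 and 5.63 for MPPs, and 3.22, 5.61 and 5.14 in myeloid progenitors. The Tex19.2 difference was 5.12 and 4.36 for LT-HSCs, 3.01 and 4.60 for MPPs, and 2.17, 4.87 and 3.91 in myeloid progenitors. As the choice of these genes favoured, all 14 differences were positive. The smallest for either gene came from pair 1 of the myeloid progenitors, and the next from pair 1 of the MPPs.

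Whether Dnmt1 loss raised the genes more in stem cells than in progenitors was estimated as an interaction. It rests on the same knockout arrays that the genes were chosen on and, with both genes at background in all control cells, mainly on their knockout levels, so it is no independent evidence. The knockout effect on Tex19.1 was larger in LT-HSCs than in MPPs by 0.96 (95% interval -0.91 to 2.83) and larger than in myeloid progenitors by 1.04 (-0.67 to 2.74), and neither passed (limma adjusted p = 0.999 and 1). For Tex19.2 these were 0.94 (-0.96 to 2.83, adjusted p = 0.999) and 1.09 (-0.64 to 2.82, adjusted p = 1). MPPs and myeloid progenitors differed by 0.07 (-1.63 to 1.78) for Tex19.1 and 0.15 (-1.58 to 1.88) for Tex19.2, with an adjusted p of 1 for both. By limma no interaction passed for any gene (0 of 8608, 0%, in each of the 3), with 123 higher and 137 lower at an unadjusted p under 0.05 for LT-HSCs against MPPs, 123 and 106 for LT-HSCs against myeloid progenitors, and 28 and 14 for MPPs against myeloid progenitors. The intervals reach 2.83 in favour of LT-HSCs, so these arrays do not settle whether or how far the knockout effects differ. Without MPP knockout array 1 the effect in LT-HSCs exceeded that in MPPs by 0.036 for Tex19.1 and 0.12 for Tex19.2, against 1.88 and 1.76 without MPP knockout array 2.

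Knockout LT-HSCs had the highest mean level of both genes, but no step in the order of the populations passed a test. The mean log2 level of Tex19.1 was 10.10 for LT-HSCs, 9.05 for myeloid progenitors and 9.05 for MPPs, and that of Tex19.2 was 9.03, 8.06 and 7.96 in the same order. Knockout LT-HSCs exceeded knockout MPPs by 1.06 for Tex19.1 (adjusted p = 0.597) and by 1.08 for Tex19.2 (adjusted p = 0.596), where 0.511% of genes differed between these populations. They exceeded knockout myeloid progenitors by 1.05 for Tex19.1 (adjusted p = 0.346) and by 0.98 for Tex19.2 (adjusted p = 0.392), where 3.79% of genes differed. Knockout MPPs and myeloid progenitors differed by -0.0057 for Tex19.1 and -0.10 for Tex19.2, where 0% of genes passed by limma while 229 were higher and 256 lower before adjustment. For Tex19.1 both knockout LT-HSC arrays (985 and 1023 units) lay above all 3 knockout myeloid progenitor arrays (193 to 920 units). For Tex19.2 these groups overlapped (428 and 566 units, against 88.4 to 530). Leaving out 1 array moved the difference between knockout LT-HSCs and MPPs between 0.13 and 1.98 for Tex19.1 and between 0.25 and 1.90 for Tex19.2, with MPP knockout arrays 1 and 2 at the ends. It moved that between knockout LT-HSCs and myeloid progenitors between 0.43 and 1.49 and between 0.34 and 1.52, with myeloid progenitor knockout arrays 1 and 2 at the ends. The LT-HSC arrays also differed from the rest in B cell markers, with summed signals of 13740 and 9483 units in knockout and 19320 and 10870 units in control LT-HSCs, against 1841 to 4861 units on all MPP and myeloid progenitor arrays. The part of this in the comparisons of populations was not tested.

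In control cells the 3 populations lay close together at background. The differences between control populations ran from -0.25 to 0.14 over both genes, with an adjusted p of 0.939 or more, where 2.32% of genes differed between control LT-HSCs and MPPs, 6.42% between LT-HSCs and myeloid progenitors and 0.0813% between MPPs and myeloid progenitors. The comparison holds for the sorted populations only as far as the sort does. Cd34, which the sort separates, was lower in control LT-HSCs than in control MPPs by -4.17 ± 0.60 (limma adjusted p = 0.00366). The stem cell genes Procr and Hlf were not higher there, at -1.72 (adjusted p = 0.244) and -1.58 (adjusted p = 0.205). In the same comparison Mpo was at -4.31 (adjusted p = 0.00113), Elane at -3.78 (adjusted p = 0.0125) and Il7r at 3.47 (adjusted p = 0.0206). Short of the threshold lay Flt3 at -2.45 (adjusted p = 0.101) and Gata1 at 1.65 (adjusted p = 0.139). So did Irf8 at -1.10, Kit at -0.88 and Meis1 at -0.38. How far the sort held was not tested.

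Among the knockout arrays of a population, replicate 1 was low in MPPs and in myeloid progenitors for both genes. In MPPs it stood below replicate 2 by 1.85 log2 units for Tex19.1 (-1.85) and 1.65 for Tex19.2 (-1.65), and 0.697% and 0.929% of the genes tested had a lower value of that difference. In myeloid progenitors it stood below replicate 2 by more than 2 units, at -2.11 for Tex19.1 and -2.34 for Tex19.2 (0.0813% and 0.0232% of genes lower), and below replicate 3 at -1.62 and -1.46 (0.43% and 0.534% of genes lower). In LT-HSCs replicate 1 was not the lower array, at 0.29 for Tex19.1 and 0.60 for Tex19.2.

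The same 2 arrays were low for most of the other genes that rose. Of the 18 risen genes besides the pair, 16 were lower on MPP knockout array 1 than on array 2, as were 51.8% of all genes tested. On myeloid progenitor knockout array 1, 17 of the 18 had their lowest value of the 3 knockout arrays, as did 31.6% of all genes tested. A pool in which fewer cells make a transcript and a pool in which each cell makes less cannot be told apart on these arrays.

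Dnmt1 signal, RNA quality and markers of other cells were read on the same arrays. Dnmt1 (1422946_a_at) had 1141 units on MPP knockout array 1 and 745 on array 2, and 1055, 1084 and 1193 units on the 3 myeloid progenitor knockout arrays. Its other probe set (1435122_x_at) had 750 and 501 units in knockout MPPs and 812, 802 and 775 units in knockout myeloid progenitors. On the MPP arrays, then, Dnmt1 was higher where Tex19.1 and Tex19.2 were lower, while in myeloid progenitors the main Dnmt1 probe set spanned only 1055 to 1193 units. Against the littermate control, the main probe set was at -0.41 and -1.11 in MPP pairs 1 and 2. In the myeloid pairs it was at -0.258, -0.977 and -0.399. The other probe set had 1846, 2107 and 1345 units in control myeloid progenitors, so its fall there was smallest in pair 3. The relation to the Tex19 signal was not tested.

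The ratio of the Gapdh 3′ and 5′ control probe sets, a measure of RNA integrity, was 2.66 and 2.53 on the 2 MPP knockout arrays and 2.33, 4.35 and 2.36 on the 3 myeloid ones. The summed signal of 15 B cell markers was 4861 and 1841 units on the MPP knockout arrays and 3324, 2814 and 2482 units on the myeloid ones, highest on array 1 in both. The summed signal of 10 mature granulocyte markers was 680 and 6802 units in knockout MPPs and 1996, 1022 and 12510 units in knockout myeloid progenitors. The part of these measures in the low Tex19 signal was not tested.

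**Figure D4:**
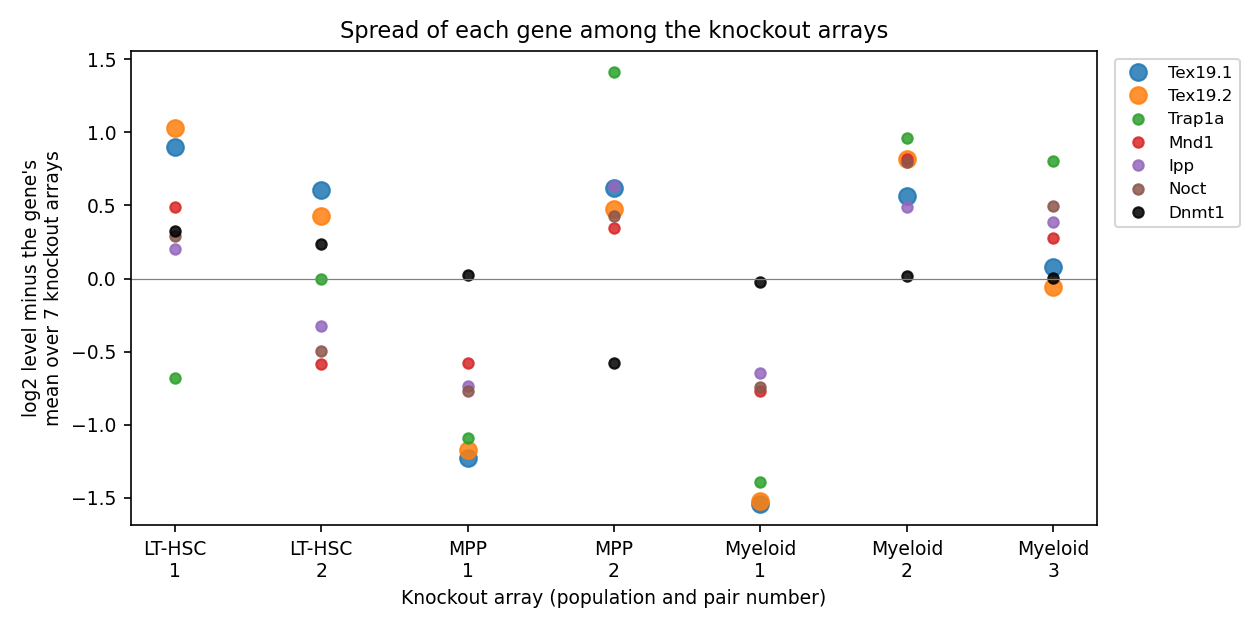
Level of each gene on each of the 7 knockout arrays (x axis) relative to that gene's mean over them (y axis, log2), for Tex19.1, Tex19.2, the 4 genes most like them over all arrays and Dnmt1. Tex19.1 and Tex19.2 lie together, at -1.23 and -1.17 on MPP array 1 and at -1.54 and -1.52 on myeloid array 1, while Trap1a falls below its mean on LT-HSC array 1 (-0.68), where the Tex19 genes are at their highest (0.90 and 1.03).

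Over the 14 arrays Tex19.1 and Tex19.2 were each other's closest match among the genes tested, with a Pearson r of 0.996. The next closest to Tex19.1 were Trap1a (0.972), Mnd1 (0.965), Ipp (0.956) and Noct (0.951), and the same 4 followed for Tex19.2, with r of 0.966 for Mnd1, 0.965 for Trap1a, 0.958 for Ipp and 0.957 for Noct. These values describe the step between the genotypes above all, since each of these genes was higher on all 7 knockout arrays than on any control array. Trap1a, an X-linked tumour rejection antigen gene, had 142 to 1201 units in knockout cells, against 2.05 to 8.76 in control cells. Mnd1, which acts in meiotic recombination, had 777 to 2483 units in knockout cells, against 126 to 313 in control cells. Of these genes, Tex19.1, Tex19.2 and Trap1a had a control signal at background.

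Over the 7 pair differences, which remove the step, Tex19.1 and Tex19.2 had an r of 0.968, which made Tex19.2 the second closest to Tex19.1, and Tex19.1 the fifth closest to Tex19.2. The other genes with the highest values were Sec22a (0.976), Pcnx4 (0.967), Gopc (0.967) and Cct6a (0.963) for Tex19.1, and Phf10 (0.984), Fkbp9 (0.981), Cryzl2 (0.972) and Apaf1 (0.972) for Tex19.2. Their average knockout differences lay between -0.09 and 0.22. None of the 8 was among the closest 5 genes of both, and r over 7 points, taken as the highest of 8608 genes, is a description only.

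Genes that guard the germ line against transposons were read because Tex19.1 is known to work in that setting. Of 21 genes listed 9 had a probe set and 5 were tested. By limma 0 of the 5 passed, where 0.232% of all genes rose and 0% fell, so this count says little about so few genes. Before adjustment 2 of the 5 were higher (p under 0.05), as were 3.19% of all genes tested. The median of the 5 was 0.32, against -0.0076 over all genes. However, 4 of the 5 passed the filter on dim signals without doing so on control arrays, so members that were higher in knockout cells were favoured. Piwil2, a PIWI protein that binds small RNAs in germ cells, was at 0.86 ± 0.24 (adjusted p = 0.347, higher in 6 of 7 pairs), with 11.3 to 64.8 units in knockout cells, against 2.49 to 22.4 in control cells. Asz1, needed for small RNAs in the male germ line of mice, was at 0.52 ± 0.19 (adjusted p = 0.615, higher in 7 of 7 pairs). Mov10l1, an RNA helicase of the same pathway, was at 0.32, and Ddx4, the germ cell helicase Vasa, was at -0.08.

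A second probe set of Asz1 (1424939_at), chosen here after its values were seen, stood further apart. It had 24.8 and 29.8 units in knockout LT-HSCs, against 3.42 and 1.69 in control LT-HSCs. It had 2.17 and 44.8 units in knockout MPPs, against 1.30 and 2.25 in control MPPs. It had 14.4, 68.7 and 55.1 units in knockout myeloid progenitors, against 2.86, 1.64 and 1.25 in control myeloid progenitors. As for the Tex19 genes, knockout array 1 was the lowest in MPPs and in myeloid progenitors. When pair 1 of both populations was left out, an alternative added after seeing the data, this probe set had the higher mean and stood for Asz1, at 1.69. That fit dropped the pairs with its lowest knockout values and left 1 MPP array per genotype. All its control values lay under the filter on dim signals, so it passed the filter through knockout arrays alone. The value of 1.69 is thus a description and no evidence that Asz1 passed.

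Meiosis and other germ cell genes held 3 genes that passed. Of 28 listed 20 had a probe set and 13 were tested, and 3 rose and 0 fell by limma, where 0.232% of all genes rose. Before adjustment 9 of the 13 were higher (p under 0.05), as were 3.19% of all genes. The 13 had a median of 0.83, but 9 of them, Dazl and Dpep3 among these, passed the filter without doing so on control arrays, so their counts and median favour genes that were higher in knockout cells. Mnd1, with signal on all control arrays, was at 2.59 ± 0.27 (adjusted p = 3.05e-04, higher in 7 of 7 pairs). Dazl, an RNA-binding protein of germ cells, had 39.5 to 483 units in knockout cells, against 1.39 to 7.56 in control cells, a difference of 2.80 ± 0.34. Dpep3, a dipeptidase of the testis, had 42.3 to 269 units in knockout cells, against 8.20 to 28.9 in control cells, a difference of 2.12 ± 0.28. Of those that missed the threshold, Tex12, a part of the synaptonemal complex, was at 1.06 (limma adjusted p = 0.228). Hormad1, which marks meiotic chromosome axes, was at 1.11 (adjusted p = 0.346), and Tex14, a protein of germ cell bridges, at 0.69 (adjusted p = 0.59). Without MPP knockout array 1, which left 1 MPP knockout array, Tex12 was at 1.34. All control values of Tex12, Hormad1 and Tex14 lay under the filter on dim signals. They thus entered the test through knockout arrays alone, which favours genes that were higher in knockout cells.

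Pluripotency genes were read because Tex19.1 is also expressed in pluripotent cells. Of 20 listed 19 had a probe set, but 5 had signal enough to be tested, with a median of -0.08. By limma 0 of the 5 passed, where 0.232% of all genes rose and 0% fell, so this count too says little. Before adjustment 2 of the 5 were higher (p under 0.05), as were 3.19% of all genes. Dppa4, a chromatin protein of pluripotent cells, was at 0.69 ± 0.19 (adjusted p = 0.346), with 7.90 to 35.1 units in knockout cells, against 1.72 to 7.19 in control cells. Its groups did not overlap, but the share of all genes without overlap was not counted. All its control values lay under the filter on dim signals, so it entered the test through knockout arrays alone. Such an entry favours genes that were higher in knockout cells. Gdf3, a growth factor of early embryos, was at 1.08 ± 0.49 (adjusted p = 0.799), and the transcription factor gene Klf4 was at -0.63 (adjusted p = 0.864).

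The ubiquitin ligase genes, which include the Tex19.1 partner Ubr2, had signal on all arrays. Of 8 listed 7 were tested, with a median of -0.12. By limma 0 of the 7 passed the threshold, where 0.232% of all genes rose and 0% fell, so this count says little. At an unadjusted p under 0.05 there were 0 of the 7, where 3.19% of all genes were higher. Ubr2 had 131 to 235 units in knockout cells, against 170 to 289 in control cells, a difference of -0.19 ± 0.16 (adjusted p = 1). The ubiquitin-conjugating enzyme gene Ube2b was at -0.18 and its relative Ube2a at 0.13.

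Markers of other cells were measured beside these genes. Of the B cell, T and NK cell, erythroid and mature granulocyte markers, 0 of 15, 0 of 14, 0 of 10 and 0 of 10 passed by limma on average. Of all genes tested 0.232% rose and 0% fell, so these counts say little about so few genes. Before adjustment 1, 4, 6 and 0 of the markers were higher (p under 0.05), as were 3.19% of all genes tested, so erythroid and T and NK cell markers lay above that share. However, 4 of the 14 T and NK cell and 2 of the 15 B cell markers passed the filter without doing so on control arrays. The counts of these 2 lists thus favour genes that were higher in knockout cells. For erythroid and granulocyte markers that number was 0. The medians were 0.78 for erythroid and 0.29 for T and NK cell markers, against -0.04 for B cell and -0.02 for granulocyte markers.

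Summed over the list, erythroid markers had 5378 and 5269 units in knockout MPPs, against 3975 and 2528 in control MPPs. By limma 6 of the 10 were higher in knockout MPPs before adjustment, as were 122 of the 8608 genes tested. T and NK cell markers had 1821 and 1792 units in knockout LT-HSCs, against 930 and 852 in control LT-HSCs. They had 1168 and 1090 units in knockout MPPs, against 810 and 1071 in control MPPs. In these 3 comparisons the genotypes did not overlap, which 2 arrays per genotype can often give without a true difference. The share of all genes without overlap was not counted, and T and NK cell markers in MPPs were apart by little (1090 against 1071 units). In the other comparisons the sums overlapped. Erythroid markers had 6448 and 8692 units in knockout LT-HSCs, against 4368 and 10450 in control LT-HSCs, and 6908, 7350 and 6137 units in knockout myeloid progenitors, against 6233, 6068 and 7749 in control ones. T and NK cell markers had 1222, 764 and 1084 units in knockout myeloid progenitors, against 1267, 835 and 1286 in control ones. Granulocyte markers had 216 to 12510 units on knockout arrays, against 567 to 11960 on control arrays. The part of other cells in the Tex19 signal was not tested.

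The signal of the genes around the Tex19 pair was followed to see how far along the chromosome the change reached. Of the 5 annotated genes on each side, 7 had a probe set and 4 were tested. Cd7, a membrane protein of lymphoid cells, was at 0.29 ± 0.15 on average (limma adjusted p = 0.864). By population Cd7 was at 0.895 ± 0.279 in LT-HSCs (adjusted p = 0.444), -0.136 in MPPs and 0.122 in myeloid progenitors. On average Ogfod3 was at 0.13 ± 0.27, Hexdc, a hexosaminidase gene, at 0.20 ± 0.23, and Cybc1, a chaperone of the phagocyte oxidase, at -0.40 ± 0.22 (adjusted p = 0.874). The adjusted p of Ogfod3 and of Hexdc was 1. In RefSeq the Tex19 genes have no gene between them, and on the far side of Tex19.1 the nearest gene, the urotensin receptor gene Uts2r, had 1.59 to 20.4 units in knockout cells, against 2.52 to 20.2 in control cells.

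Sectm1a, which lies on the far side of Tex19.2 with only a pseudogene between them, was dim but higher on the knockout array of every pair. Its probe set had 15.3 and 8.52 units in knockout LT-HSCs, against 8.77 and 2.34 in control LT-HSCs. It had 10.7 and 23.1 units in knockout MPPs, against 6.79 and 5.84 in control MPPs, and 13.4, 40.9 and 21.3 units in knockout myeloid progenitors, against 3.27, 5.62 and 5.67 in control myeloid progenitors. The share of all genes with the same direction in every pair was not counted, for this gene or for the others counted by pair. Sectm1a failed the filter on dim signals. Without that filter its average was 0.60 ± 0.15 (unadjusted p = 0.00166, adjusted p = 0.302 over 12393 genes), so it did not pass. Its neighbour Sectm1b, a related gene, was at 0.09 ± 0.09 in the same fit.

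**Figure D5:**
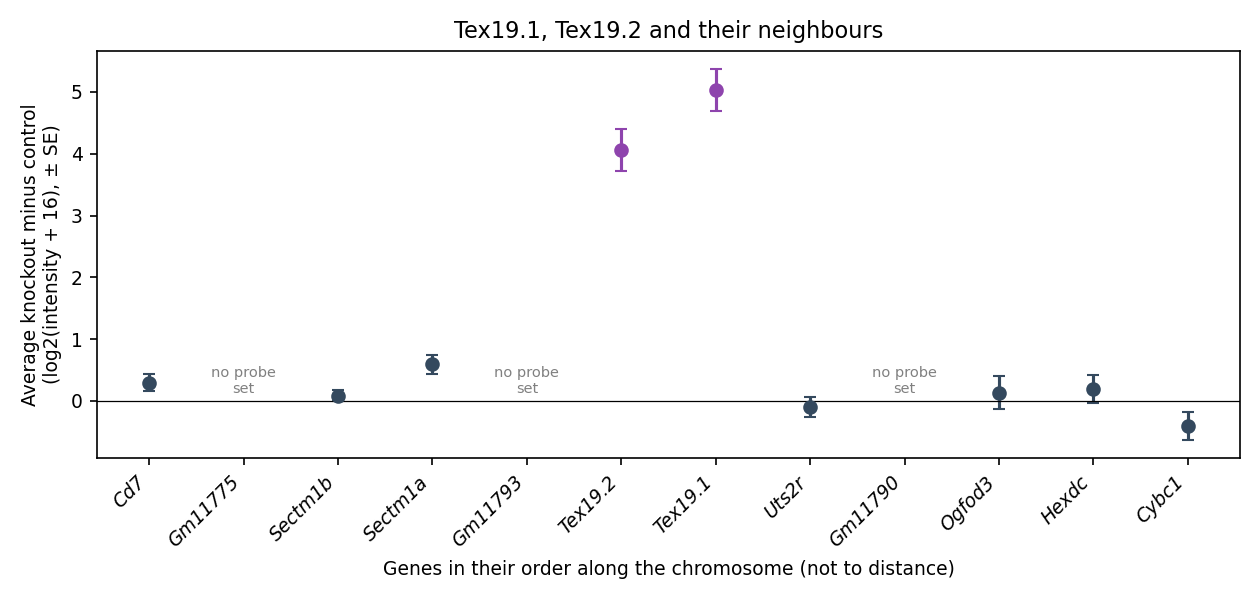
Average knockout minus control difference (y axis, log2(intensity + 16), ± SE, fit without the filter on dim signals) of Tex19.1, Tex19.2 (purple) and the 5 annotated genes on each side (blue), in their order along the chromosome (x axis, not to distance). Tex19.2 and Tex19.1 stand at 4.06 and 5.03, Sectm1a at 0.60, and the other measured neighbours between -0.40 and 0.29. Genes that no probe set is named for are marked.

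Dnmt1 itself was lower on the knockout array of all 7 pairs, with 745 to 1305 units in knockout cells, against 1328 to 2219 in control cells. Its average difference was -0.63 ± 0.14 (adjusted p = 0.193), and with the littermate pairs as blocks the adjusted p was 0.0371. These values are from the main probe set. The other probe set (1435122_x_at) had 501 to 870 units in knockout cells, against 1228 to 2107 in control cells. Which exons the floxed alleles span is not in the labels, and a probe set outside them would not check the deletion.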

How the data were processed

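The authors deposited 1 intensity per probe set and array on a linear scale, as read from the values themselves. The amplification used the WT-Ovation Pico system per the labels' protocols, and the summarisation and scaling are not given in the sources used here. After the 64 control probe sets were dropped, values were taken as log2(intensity + 16) and quantile normalized over the 14 arrays. Of the 22690 probe sets 20380 had 1 gene symbol, 691 several and 1555 none. The brightest probe set stood for a gene, and 8608 of 12393 genes exceeded the 40th percentile on at least 2 arrays. Array medians were 41.1 to 49.1 units, and replicate arrays correlated at r of 0.900 to 0.980. The number of arrays limits the precision.

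Group means were fitted with limma 3.58.1 (R 4.3.3) and a mean-variance trend. Tests were two-sided, and p-values were adjusted by Benjamini-Hochberg across the 8608 genes (threshold 0.05). The script was tested on simulated data. The average is the mean over the 3 populations. Littermates pair same-numbered arrays per the labels, and their deviations correlated within pairs (r of 0.204 to 0.613). Each array is a pool of mice.

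The members and lists were chosen with earlier results of these data known. Named were both Tex19 genes, Dnmt1, the 5 genes on each side, the 5 genes most correlated with each, and list members past the threshold or with the smallest p (up to 4). A planned comparison of the proteins was not made. Figures used matplotlib 3.10.9 (Python 3.11.15).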

Additional observations from a re-analysis of the deposited data

How the results depend on the processing

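The knockout differences of Tex19.1 and Tex19.2 stayed positive under all alternatives run, and their sizes moved with the value added before the logarithm. With 1 in place of 16, Tex19.1 was at 7.50 in LT-HSCs, 6.71 in MPPs, 6.46 in myeloid progenitors and 6.89 on average, and Tex19.2 at 6.81, 6.35, 5.39 and 6.18. With 64, Tex19.1 was at 4.05, 3.11, 3.09 and 3.42, and Tex19.2 at 3.08, 2.21, 2.23 and 2.50. Leaving out 1 array moved Tex19.1 between 3.80 and 5.66 in MPPs and between 4.22 and 5.28 in myeloid progenitors, and Tex19.2 between 2.98 and 4.63 and between 3.11 and 4.29. Without pair 1 of MPPs and of myeloid progenitors, an alternative added after seeing the data, Tex19.1 was at 5.63 and 5.38 and Tex19.2 at 4.60 and 4.40. With the littermate pairs as a replicate block the average was 5.03 ± 0.29 for Tex19.1 and 4.06 ± 0.30 for Tex19.2. The block left all population comparisons of both genes short of the threshold (adjusted p of 0.414 or more) and changed the call of Dnmt1 (adjusted p = 0.0371) and no other named gene. The count of 20 genes became 69 with the block, 54 with all probe sets as separate features, and 12 to 58 when 1 array was left out (12 without MPP control array 1, 13 without LT-HSC knockout array 1, and 41 and 58 without LT-HSC knockout or control array 2). The interaction counts of 0 became 1 for LT-HSCs and for myeloid progenitors against MPPs without MPP knockout array 2.

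Signs of differences near 0 turned, and the cause was not tested. For knockout effects of MPPs minus myeloid progenitors, leaving out 1 array gave -0.85 to 1.00 for Tex19.1 and -0.67 to 0.97 for Tex19.2, and Tex19.2 was at -0.020 with 64 added. For the knockout levels of these populations it gave -0.93 to 0.92 and -0.92 to 0.73. Tex19.1 was there at 0.029 in the values as deposited and 0.30 without both pairs 1, and Tex19.2 at 0.094 without them. For Tex19.1 in control cells leaving out 1 array gave -0.044 to 0.24 for LT-HSCs minus MPPs, -0.12 to 0.16 for LT-HSCs minus myeloid progenitors and -0.14 to 0.016 for MPPs minus myeloid progenitors. The first 2 were at -0.043 and -0.12 without LT-HSC pair 1, and the last at 0.044 without both pairs 1. Leaving out 1 array moved the averages of Ogfod3 (-0.096 to 0.36), Hexdc (-0.045 to 0.43), Pcnx4 (-0.15 to 0.11), Phf10 (-0.030 to 0.28), Cryzl2 (-0.21 to 0.022), Apaf1 (-0.015 to 0.40), Ddx4 (-0.23 to 0.068), Ube2a (-0.018 to 0.28) and Ubr3 (-0.29 to 0.054). Pcnx4 was at 6.45e-05 with median centring and 0.15 without both pairs 1, Ubr3 at 0.065 without both pairs 1, and Ddx4 at 0.030 with 1 added. The counts behind the other percentages moved too when 1 array was left out: 44 to between 7 and 261 and 326 to between 95 and 697 for knockout LT-HSCs, and 200 to between 78 and 410, 553 to between 199 and 722 and 7 to between 0 and 184 for control cells.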
